A study of Mus musculus with 18 samples.

Results

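Macrophages that had stood for 24 h with iron oxide particles were compared with macrophages that had received medium without particles, and neither group was given lipopolysaccharide (LPS). The comparison takes 6 of the 18 arrays of the series, which are the 3 arrays titled SPIO and the 3 arrays titled CON. The other arrays were used for the shared estimate of spread and, in 3 groups, to show where iron oxide differed from silica and from its own effect under LPS. The arrays were assigned to groups by their titles, and all 12393 genes with a probe set of their own were tested.

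All cells were grown from the femur marrow of C57BL/6 mice aged 4 to 6 weeks, in a medium that contained supernatant of L929 cells, a source of the growth factor M-CSF. They were then plated again in serum medium, for which no L929 supernatant is listed. The SPIO cells received iron oxide of 33 nm for 24 h and, after a wash, fresh medium for 4 h. The concentration is given in the series' text as 25 mg/ml, a unit that could not be checked here. The CON cells received the same medium without particles, and their own labels give no times. The Silica cells received amorphous silica of 50 nm in place of iron oxide, and the LPS and SPIO-LPS cells received 10 ng/ml LPS in the last 4 h after plain medium or iron oxide. Each group had 3 arrays, called biological replicates in the labels. Whether each came from its own animal is not stated, and a p-value here covers no more than the variation among these cultures.

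Macrophages recycle the iron of old red cells. Metal reaches them bound to transferrin or inside swallowed particles and cells, is set free in acid lysosomes, crosses into the cytosol through metal transporters, and is stored in ferritin or leaves the cell through ferroportin. Heme releases the repressor BACH1 from its targets and oxidants activate the transcription factor NRF2, and both factors act on many genes of heme breakdown and glutathione supply. Part of this control, above all that of ferritin, acts on translation, which an array of RNA does not read.

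Signals are on a log2 scale, so that a difference of 1 is a doubling, and a difference is given with its standard error from limma, with n = 3 arrays per group throughout. A gene counts as called, and is said to rise or fall, at a Benjamini-Hochberg adjusted p below 0.05. The arrays of either group correlated at 0.998 with each other across genes, and SPIO arrays at 0.992 to 0.994 with CON arrays. Array medians lay between 6.35 and 6.43. The difference between the 3′ and 5′ control probe sets, a sign of RNA quality, was lower in SPIO than in CON for Gapdh (0.47 ± 0.026 against 0.69 ± 0.039, SD, n = 3) and higher for Actb (0.66 ± 0.015 against 0.59 ± 0.017), and its part in the results was not tested. The labels name no batch, day or slide.

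Iron oxide changed 4189 genes, 33.8% of those tested, of which 2431 (19.6%) rose and 1758 (14.2%) fell. Most changes were small: the median called rise was 0.29 and the median called fall -0.34, and the median over all genes was -0.01. A change of at least 2-fold was reached by 51 rises and 61 falls, one of at least 3-fold by 14 and 6, and one of at least 4-fold by 4 and 3. The share of called genes grew with the signal, from 8.52% in the 4131 genes with the lowest CON signal to 40.7% in the middle 4131 and 52.2% in the highest 4131. No detection calls were used, so a fold of a gene whose mean lay under 5.24 in CON or SPIO, the level that bounds the 33.3% of genes with the lowest signals over 18 arrays, compares a signal not shown to stand above background; of the genes with a fold below these are Slc7a11, Bach2, Cd163, Cenpe, Dmpk and Ms4a4c. With 3 arrays a group, a difference had a median 95% interval of ± 0.17. In 47.6% of all genes the arrays of both groups did not overlap, which is the background for each such statement below. Most markers of 3 other cell types fell in the same cultures: 9 of 11 monocyte, 9 of 14 neutrophil and 11 of 16 fibroblast markers. Their list medians were -0.60, -0.44 and -0.31, and 1 monocyte and 2 neutrophil markers rose. Macrophage markers fell too, in 9 of 14 cases, with 3 rises and a median of -0.31. The part of the 3 other cell types in the falls described below was not tested. In whole cultures fewer cells of a type and less RNA per cell cannot be told apart.

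**Figure D1:**
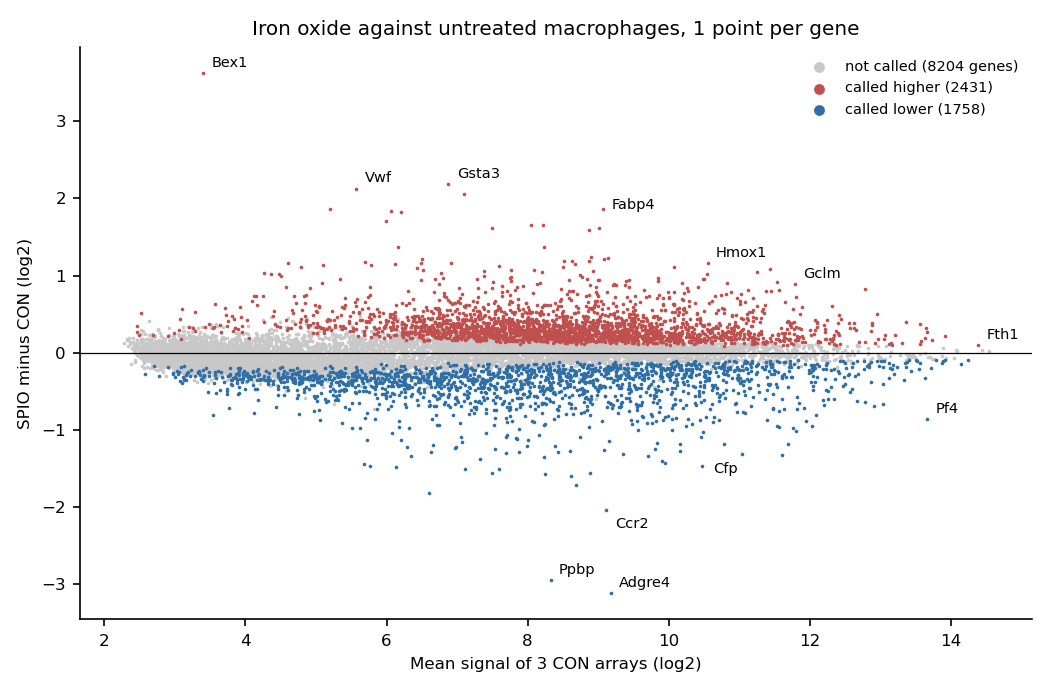
Each point is 1 of 12393 genes, with the mean signal of the 3 CON arrays (log2) on the horizontal axis and the difference SPIO minus CON (log2) on the vertical axis; 2431 genes called higher are red, 1758 called lower are blue. Coloured points are sparse at low signals (8.52% of the 4131 lowest genes) and dense at high ones (52.2%), and Bex1 (3.62) and Adgre4 (-3.11) lie farthest from 0.

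Genes that bring iron into the cytosol were among those that rose, while genes of storage and export were divided. Of 12 measured genes of iron uptake and import 4 rose and 2 fell, with a list median of 0.13. Tfrc, the receptor for transferrin-bound iron, read 10.54, 10.54 and 10.65 in CON and 11.14, 11.26 and 11.25 in SPIO, a rise of 0.64 ± 0.048 (adjusted p = 5.00e-08). Slc11a1, which pumps metal out of the phagosome, read 10.79, 10.81 and 10.85 in CON and 11.60, 11.55 and 11.59 in SPIO and rose by 0.76 ± 0.045. The related importer Slc11a2 rose by 0.51 ± 0.057, and Mcoln1, a lysosomal channel that lets iron out into the cytosol, by 0.79 ± 0.045. In all 4 the SPIO arrays lay above every CON array. The 2 falls were those of Slc39a14, a metal importer of the cell surface (-0.38 ± 0.077), and Slc25a28, which brings iron into mitochondria (-0.15 ± 0.044); the second was not called without CON array 2 or SPIO array 1 or in a fit of the compared groups alone. Of the 3 probe sets for Tfrc that are not controls 2 were called, and the 3 ranged from -0.13 to 0.64. Control probe sets for Tfrc on the same arrays were dim, with CON means of 4.74, 3.49 and 3.22 for the 3′, 5′ and middle parts, and read 0.12, 0.45 and 0.13 higher in SPIO.

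Slc40a1, which encodes ferroportin, the exporter of iron, read 9.90, 9.87 and 9.76 in CON and 10.79, 10.79 and 10.87 in SPIO, a rise of 0.97 ± 0.095 or 1.96-fold (adjusted p = 9.33e-07). Ncoa4, the receptor that takes ferritin to lysosomes, rose by 0.35 ± 0.044. Hfe and Cp of the same list went down by nearly as much as ferroportin went up. Hfe, a regulator of iron sensing at the cell surface, read 10.66, 10.60 and 10.65 in CON and 9.84, 9.75 and 9.83 in SPIO and fell by 0.83 ± 0.048, and Cp, whose product ceruloplasmin oxidises iron on its way out, fell by 0.80 ± 0.069. Pcbp2, a chaperone of cytosolic iron, fell by 0.28 ± 0.047, with 1 of its 2 probe sets called and the other at 0.05. The ferritin heavy chain gene Fth1 read 14.39, 14.39 and 14.40 in CON and 14.51, 14.50 and 14.47 in SPIO, at the top of a scale whose array maxima lay between 14.51 and 14.61. Its difference of 0.10 ± 0.033 was called (adjusted p = 0.0256) but not without CON array 1 or 2 or SPIO array 1 or 2 or in a fit of the compared groups alone, and its size cannot be read so near the upper end. The cytosolic iron sensor Aco1 read 10.26, 10.15 and 10.07 in CON and 10.29, 10.36 and 10.14 in SPIO, with overlapping arrays and adjusted p = 0.354, and was called with its probe sets averaged. Over the 13 measured genes of storage, export and sensing 4 rose and 3 fell, and 2 rose without CON array 1 or SPIO array 2 or in a fit of the compared groups alone.

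Of 19 genes that make, carry or break down heme, 8 rose and 1 fell. Hmox1, the oxygenase that opens the heme ring and frees its iron, read 10.37, 10.63 and 10.67 in CON and 11.65, 11.80 and 11.69 in SPIO, a rise of 2.24-fold (1.16 ± 0.073). Slc48a1, which carries heme out of the phagolysosome, rose by 0.53 ± 0.050, and Blvrb, a reductase of the breakdown products, by 0.45 ± 0.051. The 1 fall was that of Cd163, the surface receptor for hemoglobin bound to haptoglobin, which read 5.85, 5.65 and 5.68 in CON and 4.33, 4.70 and 4.74 in SPIO and fell 2.19-fold (-1.13 ± 0.13). Among 12 genes that assemble iron-sulfur clusters 7 rose and 1 fell, all by small amounts: the cysteine desulfurase gene Nfs1 rose by 0.34 ± 0.054, the electron donor gene Fdx1 by 0.31 ± 0.058 and the co-chaperone gene Hscb by 0.32 ± 0.072, while the scaffold gene Iscu fell by 0.16 ± 0.041.

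**Figure D2:**
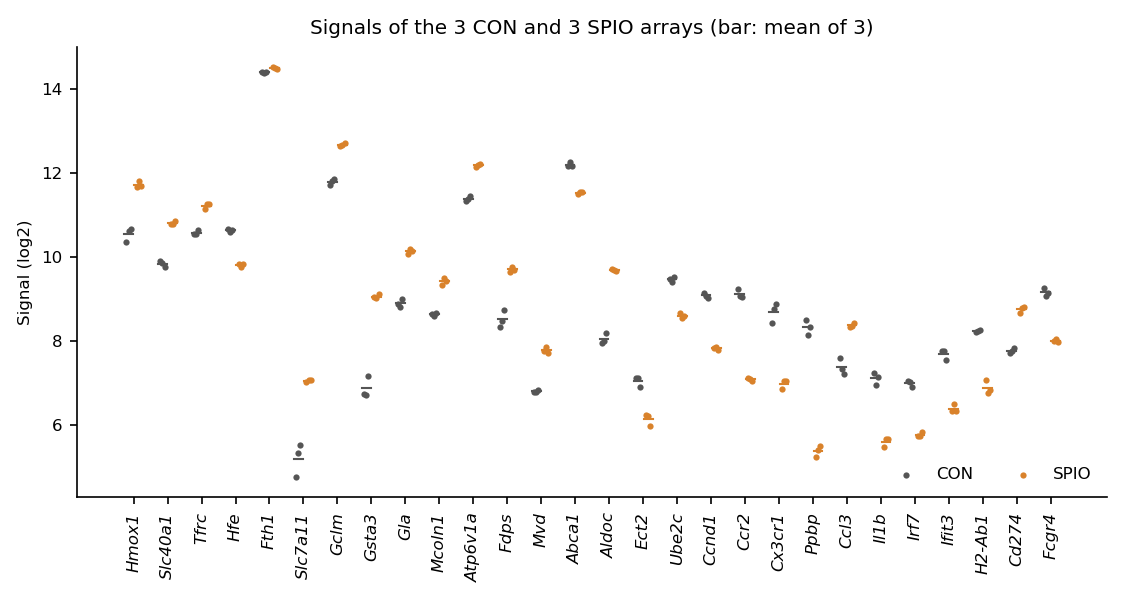
Signals (log2, vertical axis) of 28 genes on the 3 CON arrays (grey) and the 3 SPIO arrays (orange), with a bar at each mean of 3 arrays. In each gene the points of one colour lie apart from those of the other; the gap is largest for Ppbp (-2.94) and smallest for Fth1 (0.10), which sits at the top of the scale.

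Genes of glutathione supply made one of the clearest groups of rises. Of 12 genes of cystine import and glutathione synthesis 9 rose and 1 fell, with a median of 0.38. Slc7a11, which imports cystine, read 4.76, 5.33 and 5.51 in CON and 7.02, 7.08 and 7.07 in SPIO, a rise of 3.62-fold (1.86 ± 0.14, adjusted p = 6.16e-08). Both subunits of the rate-limiting ligase rose: Gclm, the modifier subunit, read 11.70, 11.81 and 11.85 in CON and 12.65, 12.66 and 12.71 in SPIO (0.88 ± 0.053), and Gclc, the catalytic one, read 9.33, 9.51 and 9.49 in CON and 9.90, 9.95 and 9.98 in SPIO (0.50 ± 0.054). Gsr, which returns oxidised glutathione to its reduced form, rose by 0.93 ± 0.048, and Cth, which makes cysteine from cystathionine, by 1.02 ± 0.13. The fall was that of Ggt5 (-0.86 ± 0.12), a surface enzyme that cleaves glutathione conjugates.

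Enzymes that use glutathione did not move as a block. Of 22 transferases and peroxidases 10 rose and 4 fell. Gsta3, an alpha-class transferase, read 6.75, 6.72 and 7.16 in CON and 9.05, 9.02 and 9.11 in SPIO, a rise of 4.53-fold (2.18 ± 0.10), and the mu-class gene Gstm1 read 8.98, 8.99 and 9.05 in CON and 10.63, 10.62 and 10.64 in SPIO (3.08-fold). Mgst2 (0.74 ± 0.059) and Gstm2 (0.71 ± 0.070) rose by less, and all 4 falls were in other classes: Gpx7 (-0.56 ± 0.073), Gpx8 (-0.47 ± 0.075), Gstp1 (-0.31 ± 0.040) and the secreted peroxidase gene Gpx3 (-0.28 ± 0.053). Gpx4, which removes lipid peroxides, read 12.03, 12.03 and 12.12 in CON and 12.06, 12.06 and 12.10 in SPIO, with overlapping arrays and adjusted p = 0.813. Transferase genes are near copies of each other, so signals within a class may be shared.

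In the thioredoxin system 5 of 15 genes rose and 3 fell. Srxn1, the sulfiredoxin that repairs peroxiredoxins, read 9.03, 8.95 and 9.26 in CON and 10.25, 10.33 and 10.30 in SPIO and rose 2.32-fold, followed by the catalase gene Cat (0.66 ± 0.11), the thioredoxin reductase gene Txnrd1 (0.63 ± 0.058) and Txn1 (0.36 ± 0.037; not called with its probe sets averaged). Txnip, an inhibitor of thioredoxin, fell by 0.31 ± 0.043, and the peroxiredoxin genes Prdx4 and Prdx2 by 0.29 ± 0.049 and 0.22 ± 0.038. Of 18 quinone, aldehyde and NADPH enzymes 10 rose and 1 fell. They included Ptgr1 (0.94 ± 0.060), which reduces lipid aldehydes, the pentose phosphate genes Taldo1 (0.60 ± 0.041) and Pgd (0.49 ± 0.042), the carbonyl reductase gene Cbr3 (0.55 ± 0.055) and Nqo1 (0.44 ± 0.081). Ephx1, an epoxide hydrolase, fell by 0.66 ± 0.052. The transcription factor gene Nfe2l2 itself, which encodes NRF2, read 10.95, 11.05 and 11.04 in CON and 11.08, 11.03 and 11.12 in SPIO (adjusted p = 0.282), and its inhibitor gene Keap1 (0.36 ± 0.045), its partner Mafg (0.43 ± 0.085) and the autophagy receptor gene Sqstm1 (0.75 ± 0.045) rose. Of 3 measured metallothionein genes, whose proteins bind zinc and copper, 2 rose: Mt1 read 11.70, 11.73 and 11.71 in CON and 12.12, 12.09 and 12.11 in SPIO (0.40 ± 0.045; 1 of its 2 probe sets was called) and Mt2 9.20, 9.17 and 9.07 in CON and 9.42, 9.41 and 9.30 in SPIO (0.23 ± 0.056). The third, Mt3, had a CON mean of 4.52 and a difference of -0.25 ± 0.097 (adjusted p = 0.0631).

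The sequence letters before these genes are shown because many NRF2 targets carry an antioxidant response element, whose core was searched as TGACNNNGC on both strands of the 250 bases before each RefSeq gene start (GRCm38.p6). It was present in 9 of 57 genes with a promoter entry over the glutathione, transferase, thioredoxin and quinone lists (15.8%), and in 13.5% of all 9887 measured genes with an entry. The following are the called rises of these lists with the largest change among those with a match, 5′ to 3′ along the gene, the core in capitals. Gsta3 lies at chr1:21240429-21240507, + strand and Gclm, whose match is on the opposite strand, at chr3:122245388-122245466, + strand, with the core starting 121 and 134 bases before the gene start.
Gsta3: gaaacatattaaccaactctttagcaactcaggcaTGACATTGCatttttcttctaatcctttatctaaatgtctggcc
Gclm: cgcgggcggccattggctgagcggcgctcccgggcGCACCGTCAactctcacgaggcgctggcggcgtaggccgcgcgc
A match is a run of letters and says nothing of binding in these cells.

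Lysosomal genes rose across enzymes, membrane proteins and the proton pump. The vacuolar pump, which acidifies the lysosome, had 14 of 15 measured subunit genes up and 0 down by limma, also 0 down at an unadjusted p under 0.05, with a median of 0.54. Atp6v1a, a catalytic subunit, read 11.32, 11.38 and 11.45 in CON and 12.13, 12.19 and 12.22 in SPIO (0.79 ± 0.044, adjusted p = 2.15e-09). Atp6v1c1 (0.72 ± 0.045), Atp6v0d1 (0.67 ± 0.039) and Atp6v1h (0.62 ± 0.045) rose by like amounts. The per-array median over the 15 genes, taken from the CON mean, was 0.46, 0.57 and 0.55 on the SPIO arrays and at most 0.02 on the CON arrays.

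Of 21 membrane and sorting proteins 16 rose and 0 fell (0 at an unadjusted p under 0.05), and of 28 hydrolases 19 rose and 3 fell. Sort1, a receptor that sorts enzymes to the lysosome, read 8.82, 8.90 and 8.87 in CON and 10.03, 10.03 and 10.08 in SPIO (2.27-fold), and Mcoln2, a relative of the channel Mcoln1, 7.56, 7.63 and 7.61 in CON and 8.64, 8.69 and 8.86 in SPIO (2.19-fold). Npc1, which moves cholesterol out of the lysosome, rose by 0.85 ± 0.058. Gla, which cleaves galactose from lipids, read 8.89, 8.80 and 8.99 in CON and 10.06, 10.20 and 10.14 in SPIO, a rise of 2.36-fold, and Naglu, which degrades heparan sulfate, rose by 0.85 ± 0.069. Abundant members moved less on the log scale: Lamp1 rose by 0.23 ± 0.037 and Cd68 by 0.33 ± 0.039 from CON means of 13.21 and 12.57. The falls among hydrolases were those of the acid phosphatase genes Acp5 (-0.40 ± 0.069) and Acp2 (-0.28 ± 0.067) and of Ppt2 (-0.22 ± 0.061), the last not called without SPIO array 2. Among 16 cathepsins and inhibitors 7 rose and 3 fell. Only 1 fell with a replicate block or without CON array 2 or 3 or SPIO array 1 or 3. The rises were led by Ctsd (0.40 ± 0.037) and Ctsz (0.38 ± 0.037), and the falls included Ctsc, which activates granule proteases (-0.43 ± 0.033).

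Of 25 autophagy genes and factors that drive lysosome genes, 16 were called higher and 1, Wipi1, lower (-0.25 ± 0.050). Besides Sqstm1 these were led by Gabarapl1 (0.73 ± 0.048) and Atg12 (0.63 ± 0.060), parts of the machinery that coats autophagosomes, and Rragc (0.62 ± 0.042), which carries the nutrient signal to the lysosome. Gpnmb, a marker of lysosomal load, rose by 0.27 ± 0.035 from an already high CON mean of 13.67, and Tfeb, the master factor of lysosome genes, read 7.29, 7.48 and 7.36 in CON and 7.59, 7.51 and 7.49 in SPIO (adjusted p = 0.142). Of 34 genes of Rab proteins and membrane traffic 22 rose and 3 fell, with Snx10 (0.62 ± 0.056), Rab9 (0.56 ± 0.050) and Rab7b (0.53 ± 0.058) the largest. Rises outnumbered falls also over all 56 measured genes whose symbol starts with Rab (23 and 3).

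The factors of this group bind the CLEAR element, searched as TCACGTGA, which reads alike on both strands and contains the E-box CACGTG. It stood in the 250 bases before 5 of 52 genes of the hydrolase, membrane and pump lists with an entry (9.62%) and before 1.46% of all 9887. The called rises with the largest change among the 5 are shown with each element in capitals: Gla at chrX:134601158-134601235, - strand, with 2 elements, and Mcoln1 at chr8:3500438-3500515, + strand, with 1. The elements nearest the start begin 195 and 46 bases before it.
Gla: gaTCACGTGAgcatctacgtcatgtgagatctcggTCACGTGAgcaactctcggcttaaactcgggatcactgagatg
Mcoln1: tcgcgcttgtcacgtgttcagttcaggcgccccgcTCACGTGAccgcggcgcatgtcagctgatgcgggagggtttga

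Enzymes of sterol synthesis rose nearly throughout. Of 17 measured enzymes 16 rose and 0 fell (0 at an unadjusted p under 0.05), with a median of 0.76 and per-array medians of 0.71, 0.83 and 0.76 in SPIO against -0.05 to 0.08 in CON. Fdps, which makes farnesyl diphosphate, read 8.34, 8.47 and 8.74 in CON and 9.65, 9.76 and 9.70 in SPIO (2.27-fold). The squalene synthase gene Fdft1 read 8.74, 8.72 and 8.86 in CON and 9.74, 9.83 and 9.70 in SPIO (1.98-fold), Mvd of the mevalonate branch 6.79, 6.80 and 6.83 in CON and 7.76, 7.86 and 7.71 in SPIO (1.96-fold), and the epoxidase gene Sqle 9.24, 9.17 and 9.36 in CON and 10.16, 10.16 and 10.10 in SPIO (1.84-fold). In these 4 genes each SPIO array lay above all CON arrays on the probe set used. Of the 2 probe sets of Fdps 1 was called, and they read 1.18 and 0.12. Of the 4 of Fdft1 2 were called, and they ranged from -0.08 to 0.98. Srebf2, which encodes the factor that controls the pathway, rose by 0.40 ± 0.053, and the sterol carrier gene Stard4 by 0.50 ± 0.064. Genes of cholesterol export and other LXR targets went the other way in 5 of 12 cases, with 1 rise. Abca1, the main exporter, read 12.17, 12.27 and 12.16 in CON and 11.51, 11.54 and 11.54 in SPIO and fell by 0.67 ± 0.059, Pltp, a lipid transfer protein, fell by 0.78 ± 0.064, Ch25h, which makes an oxysterol, by 0.73 ± 0.077, and Apoc1 by 0.65 ± 0.081.

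In the 250 bases before the start, CCAAT boxes (CCAAT on either strand) were found in all 14 sterol enzyme genes with an entry and in 39.9% of all 9887 genes. The windows of Mvd (chr8:122443423-122443484, - strand) and Msmo1 (chr8:64733594-64733668, - strand), a demethylating oxidase gene that rose by 0.88, are shown because theirs were the largest called rises among these 14. Capitals mark the boxes, of which Mvd has 2 in the 250 bases, both shown, and Msmo1 has 3, of which 1 is shown. The boxes nearest the start begin 27 and 55 bases before it.
Mvd: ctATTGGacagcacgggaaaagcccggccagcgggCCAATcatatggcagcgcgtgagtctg
Msmo1: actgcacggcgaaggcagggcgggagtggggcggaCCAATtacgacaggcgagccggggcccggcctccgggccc

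Other lipid genes were mixed. Fabp4, a fatty acid carrier and PPAR target, read 9.03, 9.14 and 9.04 in CON and 10.91, 10.99 and 10.89 in SPIO, a rise of 3.63-fold, and Fabp3, its relative from muscle, 5.95, 6.33 and 6.21 in CON and 7.40, 7.60 and 7.57 in SPIO (2.58-fold). The lipid scavenger gene Cd36 rose by 0.38 ± 0.049, the coactivator gene Ppargc1b by 1.03 ± 0.14, and Acss2, which activates acetate, by 1.14 ± 0.11. Pdk4, a PPAR target that holds back pyruvate oxidation, read 7.52, 7.56 and 7.43 in CON and 6.03, 5.79 and 6.01 in SPIO and fell 2.94-fold, and Lpl, which frees fatty acids from lipoproteins, fell by 0.42 ± 0.084. Among eicosanoid genes Hpgd, which inactivates prostaglandins, read 8.64, 8.62 and 8.56 in CON and 7.34, 7.25 and 7.40 in SPIO and fell 2.42-fold, and the cyclooxygenase gene Ptgs2 fell by 0.58 ± 0.084, while the prostacyclin receptor gene Ptgir rose by 1.10 ± 0.078.

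Lists of energy metabolism differed in how many of their genes rose. In glycolysis 12 of 19 genes rose and 0 fell by limma (0 at an unadjusted p under 0.05). Aldoc, an aldolase, stood out with 7.95, 8.01 and 8.19 in CON and 9.72, 9.70 and 9.67 in SPIO (3.13-fold, adjusted p = 1.36e-10), and Pfkl (0.58 ± 0.11), Pgam1 (0.58 ± 0.037) and the lactate carrier gene Slc16a1 (0.43 ± 0.058) followed. Targets of the hypoxia factors were divided, with 6 of 19 up and 5 down (3 down without SPIO array 2). Egln3 rose by 0.74 ± 0.14 and Ndrg1 by 0.62 ± 0.064, and the growth factor gene Vegfa fell by 0.80 ± 0.066, Ddit4 by 0.65 ± 0.058 and the peptide gene Adm by 0.65 ± 0.081. Of 36 subunit genes of respiratory complexes I and II 17 rose and 1 fell, with a median of 0.12 and no rise above that of Ndufs5 (0.34 ± 0.047). Of 34 subunit genes of complexes III and IV and the ATP synthase 7 rose, a share of 20.6% beside 19.6% over all genes, and 0 fell by limma (1 at an unadjusted p under 0.05). Without SPIO array 3 or with the compared groups alone 2 rose, 3 without CON array 2 and 4 without CON array 1 or SPIO array 2. The share over all genes takes no account of signal. CON means of these subunit genes ran from 6.04 to 13.31. Over all genes, 987 of 4131 rose at middle CON signals and 1336 of 4131 at the highest. Of 17 citrate cycle genes 6 rose and 2 fell (3 and 1 without CON array 1; 4 and 0 without SPIO array 1; 4 and 1 without SPIO array 3). In the mitochondrial ribosome 18 of 53 rose and 1 fell, and 11 rose without SPIO array 2. Panx1, a channel that releases ATP from the cell, read 8.16, 8.26 and 8.27 in CON and 9.51, 9.64 and 9.66 in SPIO (2.59-fold), and Hvcn1, the voltage-gated proton channel of phagocytes, 9.06, 9.17 and 9.18 in CON and 10.33, 10.37 and 10.39 in SPIO (2.34-fold).

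Protein synthesis and turnover moved in different directions. Among 42 cytosolic ribosomal protein genes 19 fell and 0 rose by limma (1 higher at an unadjusted p under 0.05), with a median of -0.10. Without SPIO array 2, and in a fit of the compared groups alone, 12 fell. The falls were small, such as that of Rps18 (-0.21 ± 0.035), and the largest that of Rpl37 (-0.46 ± 0.078). Ribosomal genes have many processed copies, so their signals are uncertain. Of 36 proteasome genes 15 rose and 4 fell. The rises were those of standard subunits, such as Psmd1 (0.49 ± 0.037), Psmd8 (0.47 ± 0.042) and Psmb5 (0.35 ± 0.040), and the 4 falls were Psmb9 (-0.38 ± 0.051), Psme1 (-0.29 ± 0.039), Psmb10 (-0.20 ± 0.042) and Psmb8 (-0.15 ± 0.039), which are parts of the interferon-induced immunoproteasome and its activator. Chaperones of the endoplasmic reticulum and other genes of the unfolded protein response rose in 14 of 25 cases, with Sdf2l1 (0.65 ± 0.040), the oxidase gene Ero1a (0.62 ± 0.055) and Edem1 (0.51 ± 0.043) the largest. In the list of ATF4 and amino acid genes 8 of 28 rose and 9 fell. The rises included the stress regulators Ddit3 (0.63 ± 0.066) and Atf3 (0.55 ± 0.052), and the falls serine synthesis (Psat1 at -0.64 ± 0.058, Phgdh at -0.55 ± 0.059). Stress genes were also among the falls. Nupr1 read -0.47 and -0.46 on its 2 probe sets, both called, and Sesn2 -0.36 and -0.01, of which 1 was called. Of 18 cytosolic and mitochondrial heat shock genes 3 rose and 4 fell, with a median of 0.01. The rises were Hsph1 (0.23 ± 0.074), Hspa9 (0.21 ± 0.044) and Chordc1 (0.21 ± 0.052), and the falls Cryab (-0.63 ± 0.11), Hspa1b (-0.45 ± 0.13), Hspb1 (-0.40 ± 0.049) and Hsp90aa1 (-0.30 ± 0.063). The call of Hsph1 was lost without CON array 2 or SPIO array 2 and with the compared groups alone, and that of Hspa1b without CON array 1 or SPIO array 3 and with its probe sets averaged.

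**Figure D3:**
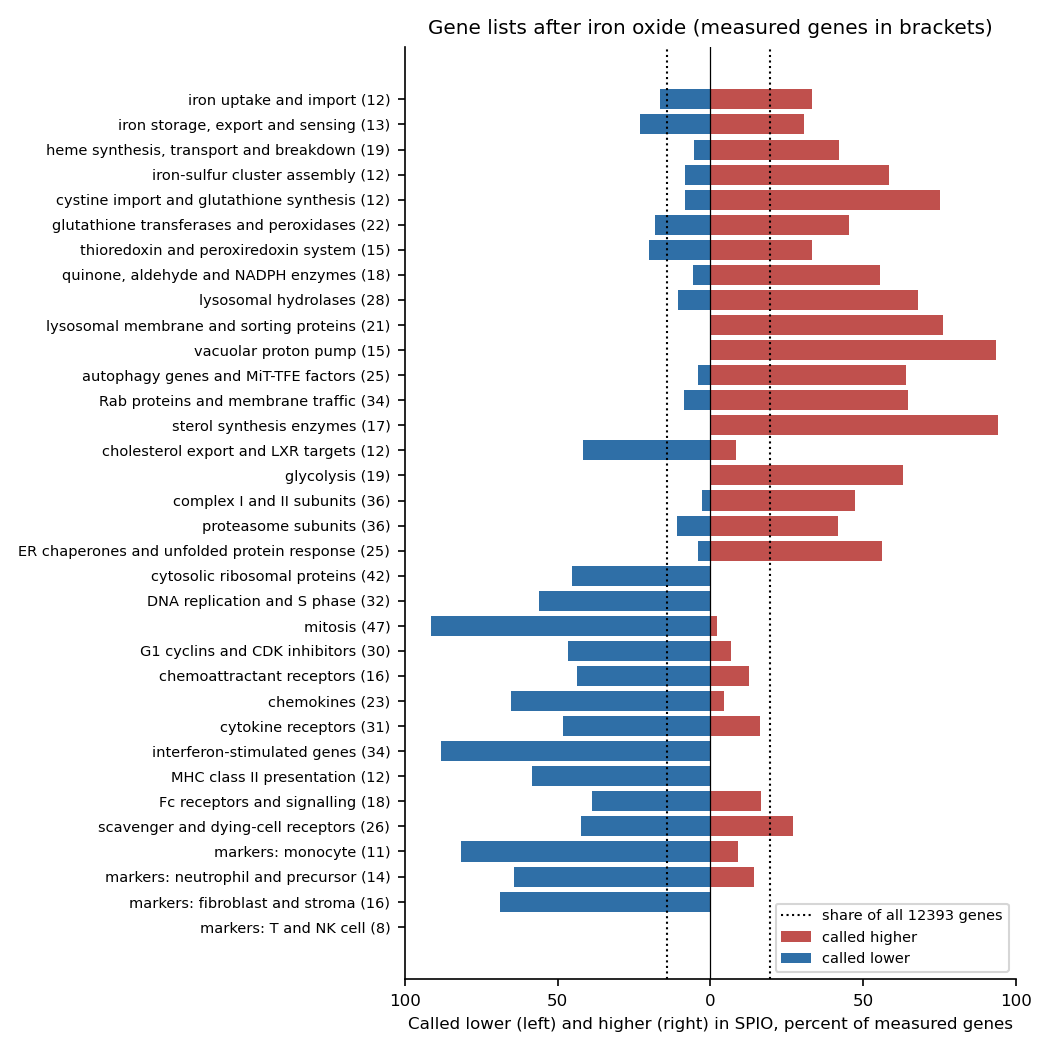
For 34 gene lists, bars give the percent of measured genes called higher (red, right) and called lower (blue, left) in SPIO against CON; dotted lines mark the shares over all genes, 19.6% higher and 14.2% lower. Sterol enzymes (16 of 17) and the proton pump (14 of 15) reach farthest right, mitosis (43 of 47) and interferon-stimulated genes (30 of 34) farthest left. The dotted lines take no account of signal. The share called was 8.52% in the 4131 genes with the lowest CON signals and 52.2% in the 4131 with the highest.

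Genes of cell division were lower in the treated cultures. Of 47 mitosis genes 43 fell and 1 rose, with a median of -0.57 and per-array medians of -0.58, -0.59 and -0.52 in SPIO against -0.03 to 0.01 in CON. In 45 of the 47 all SPIO arrays lay below all CON arrays. Cenpe, a motor protein of the kinetochore, read 6.28, 6.44 and 6.15 in CON and 5.02, 5.13 and 5.06 in SPIO and fell 2.34-fold, Ect2, which drives the division furrow, read 7.12, 7.12 and 6.91 in CON and 6.24, 6.21 and 5.98 in SPIO (1.88-fold lower), and Ube2c, an enzyme that marks mitotic proteins for destruction, 9.47, 9.41 and 9.52 in CON and 8.66, 8.54 and 8.60 in SPIO (1.82-fold lower). The cyclin gene Ccnb2 fell by 0.86 ± 0.083. Exceptions were Pttg1, whose product securin holds sister chromatids together, with a rise of 0.24 ± 0.039 that was not called with its probe sets averaged, and the proliferation marker gene Mki67, with 9.21, 9.48 and 9.35 in CON and 9.03, 9.18 and 9.13 in SPIO and adjusted p = 0.0549. Mki67 was called without CON array 1, and under 4 of the other 7 settings of the analysis.

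In DNA replication 18 of 32 genes fell and 0 rose by limma (0 at an unadjusted p under 0.05), with a median of -0.28. Both subunit genes of ribonucleotide reductase, which makes DNA building blocks, fell: Rrm2 read 10.35, 10.34 and 10.30 in CON and 9.41, 9.37 and 9.44 in SPIO and Rrm1 9.88, 9.86 and 9.88 in CON and 9.18, 9.22 and 9.10 in SPIO. The thymidine kinase gene Tk1 fell by 0.82 ± 0.065 and the helicase gene Mcm7 by 0.64 ± 0.063. Of 30 genes that control entry into the cycle 14 fell and 2 rose. Ccnd1, the cyclin that growth factors induce, read 9.15, 9.08 and 9.03 in CON and 7.83, 7.87 and 7.78 in SPIO, a fall of 2.40-fold (adjusted p = 2.89e-10). Inhibitors of the cycle were among the falls: Cdkn1a, which encodes p21, read 11.01, 11.11 and 11.10 in CON and 10.55, 10.50 and 10.68 in SPIO and fell by 0.49 ± 0.049, and Btg2 fell by 0.56 ± 0.081. Gadd45a, a growth arrest gene, was one of the 2 rises, with 7.70, 7.76 and 7.84 in CON and 8.77, 8.99 and 8.76 in SPIO (2.10-fold).

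Many genes of this group carry the cell cycle homology region, searched as TTTGAA on both strands. It was present before 15 of 40 mitosis genes with an entry (37.5%) and before 13.8% of all 9887. The windows of Ect2 (chr3:27153952-27154027, - strand) and Ube2c (chr2:164769865-164769928, + strand, match on the opposite strand), the largest called falls with a match, show it in capitals, beginning 114 and 29 bases before the gene start.
Ect2: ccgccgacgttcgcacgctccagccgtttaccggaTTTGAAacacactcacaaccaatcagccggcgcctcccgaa
Ube2c: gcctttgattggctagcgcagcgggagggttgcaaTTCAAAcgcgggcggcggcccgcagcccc

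Several receptors that guide leukocytes fell. Ccr2, the receptor through which monocytes follow Ccl2, read 9.23, 9.08 and 9.04 in CON and 7.12, 7.09 and 7.04 in SPIO, a fall of 4.09-fold (-2.03 ± 0.12, adjusted p = 4.36e-09). Cx3cr1, the fractalkine receptor, read 8.43, 8.77 and 8.88 in CON and 6.85, 7.05 and 7.05 in SPIO (3.28-fold lower), and Ccr1 10.17, 10.16 and 10.17 in CON and 8.92, 9.03 and 9.0 in SPIO (2.27-fold lower). Among 16 chemoattractant receptors 7 fell, 2 rose and 7 were not called, the rises being Cxcr3 (0.59 ± 0.10) and the decoy receptor gene Ccrl2 (0.59 ± 0.057).

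Of 23 chemokine genes 15 fell and 1 rose, with a median of -0.58 and per-array medians of -0.55, -0.56 and -0.55 in SPIO. Ppbp, a platelet-type chemokine, read 8.49, 8.15 and 8.34 in CON and 5.24, 5.41 and 5.50 in SPIO, the largest fall of the list at 7.70-fold. Its neighbour in type Pf4 fell by 0.86 ± 0.038 from a CON mean of 13.67. The neutrophil attractant gene Cxcl2 (8.38, 8.54 and 8.40 in CON and 7.14, 7.21 and 7.12 in SPIO) fell 2.43-fold, and Cxcl1, at 5.07, 4.97 and 5.11 in CON and 4.05, 4.51 and 4.00 in SPIO, lay among the lowest signals in both groups. Cxcl10, induced by interferon, fell 2.43-fold, and Cxcl12, a chemokine of stromal cells, 2.25-fold. Ccl3 alone rose, with 7.60, 7.34 and 7.21 in CON and 8.34, 8.36 and 8.43 in SPIO (1.99-fold). Ccr2 and Cx3cr1 are also monocyte markers, Ppbp and Pf4 platelet markers and Cxcl12 a stromal one, and the levels of the other markers of those cells are given further on.

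Cytokine genes did not move one way. Of 29 genes 12 fell and 9 rose (5 rose without SPIO array 2). Il1b, the main secreted interleukin 1, read 7.25, 6.96 and 7.15 in CON and 5.48, 5.66 and 5.67 in SPIO, a fall of 2.85-fold (adjusted p = 1.85e-09). Csf1, which encodes M-CSF itself, read 10.71, 10.79 and 10.63 in CON and 9.82, 9.80 and 9.89 in SPIO and fell 1.83-fold, and Hbegf fell by 0.64 ± 0.061. On the other side Vegfb read 6.49, 6.43 and 6.53 in CON and 7.32, 7.47 and 7.49 in SPIO (1.92-fold), and Gas6, which bridges dying cells to their receptors, rose by 0.54 ± 0.038. Tnf read 6.52, 6.78 and 6.87 in CON and 7.07, 6.92 and 6.91 in SPIO; its difference of 0.25 ± 0.084 was called (adjusted p = 0.0351) but not without CON array 1, SPIO array 1 or SPIO array 2, with a replicate block, under cyclic loess or in a fit of the compared groups alone. Of 31 receptors for cytokines 15 were called lower and 5 higher. Tnfrsf11b, a decoy receptor of bone turnover, fell 3.03-fold, Il21r 1.74-fold and Il10ra 1.47-fold, while the TNF receptor gene Tnfrsf1b rose by 0.67 ± 0.044. The M-CSF receptor gene Csf1r read 13.92, 13.93 and 13.91 in CON and 13.83, 13.82 and 13.81 in SPIO, near the upper end, with a called difference of -0.10 ± 0.032 that was lost without CON array 1 or 2 or SPIO array 2 or 3, under cyclic loess and in a fit of the compared groups alone.

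Of 34 interferon-stimulated genes 30 fell and 0 rose by limma (0 at an unadjusted p under 0.05), with a median of -0.51 and per-array medians of -0.56, -0.49 and -0.61 in SPIO against -0.03 to 0.07 in CON. Ifit3, an antiviral effector, read 7.77, 7.76 and 7.55 in CON and 6.33, 6.51 and 6.34 in SPIO (2.47-fold lower), and Rtp4 9.87, 9.63 and 9.62 in CON and 8.29, 8.55 and 8.27 in SPIO (2.53-fold lower). Irf7, the transcription factor that amplifies the response, read 7.05, 7.01 and 6.91 in CON and 5.73, 5.73 and 5.83 in SPIO, a fall of 2.34-fold (adjusted p = 9.65e-09). Ifi27l2a, a small mitochondrial protein gene, fell 2.42-fold. In the dimmer genes Mx1 (5.64, 5.89 and 5.53 in CON and 4.27, 4.66 and 3.81 in SPIO) and Iigp1 (6.08, 5.76 and 5.47 in CON and 5.03, 4.06 and 3.83 in SPIO) the SPIO arrays lay far apart from each other but did not overlap with CON.

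The interferon-stimulated response element was searched on both strands as TTTC, any 2 bases and TTTC. It stood before 14 of 24 genes of the list with an entry (58.3%) and before 3.35% of all 9887. Ifit3 (chr19:34583372-34583451, + strand), with 2 elements, and Rsad2 (chr12:26456528-26456607, - strand), the viperin gene, which fell by 1.10, are shown with the element in capitals; the nearest begins 122 and 120 bases before the start. In none of the 10 windows printed here did the element nearest the start overlap a match of another motif searched.
Ifit3: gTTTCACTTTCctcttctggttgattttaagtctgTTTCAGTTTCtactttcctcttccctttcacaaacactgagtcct
Rsad2: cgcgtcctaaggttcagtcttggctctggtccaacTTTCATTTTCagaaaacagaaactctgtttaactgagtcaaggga

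Of 12 genes of antigen presentation by MHC class II 7 fell and 0 rose by limma (0 at an unadjusted p under 0.05). The chain genes H2-Ab1 (8.21, 8.24 and 8.26 in CON and 7.08, 6.76 and 6.83 in SPIO), H2-Aa (9.46, 9.28 and 9.30 in CON and 8.11, 7.93 and 8.07 in SPIO) and H2-Eb1 (7.93, 7.87 and 7.83 in CON and 6.66, 6.47 and 6.65 in SPIO) fell 2.55-fold, 2.48-fold and 2.44-fold, and H2-DMa, which loads the peptide, 2.15-fold. The list's median of -0.37 became -1.06 when the dimmest genes were left out, which removed several of its members. Of 11 genes of MHC class I and peptide loading 4 rose and 1 fell (3 and 3 under cyclic loess), with a median of -0.02. The rises included H2-D1 (0.23 ± 0.035) and Cd1d1 (0.41 ± 0.060). Of the 9 probe sets of H2-D1 4 were called, and the 9 ranged from -0.19 to 0.72. Chain genes of both classes are near copies, so signals may be shared. Inhibitory and costimulatory molecules split. Cd200r1, an inhibitory receptor, read 8.66, 8.56 and 8.78 in CON and 9.79, 9.82 and 9.86 in SPIO (2.22-fold), Cd274, which encodes the checkpoint ligand PD-L1, 7.72, 7.77 and 7.83 in CON and 8.66, 8.80 and 8.81 in SPIO (1.98-fold), and Havcr2, the TIM-3 gene, rose by 0.75 ± 0.065. The paired receptor genes Pilrb1 and Pilra, also near copies, fell 2.98-fold and 2.37-fold.

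**Figure D4:**
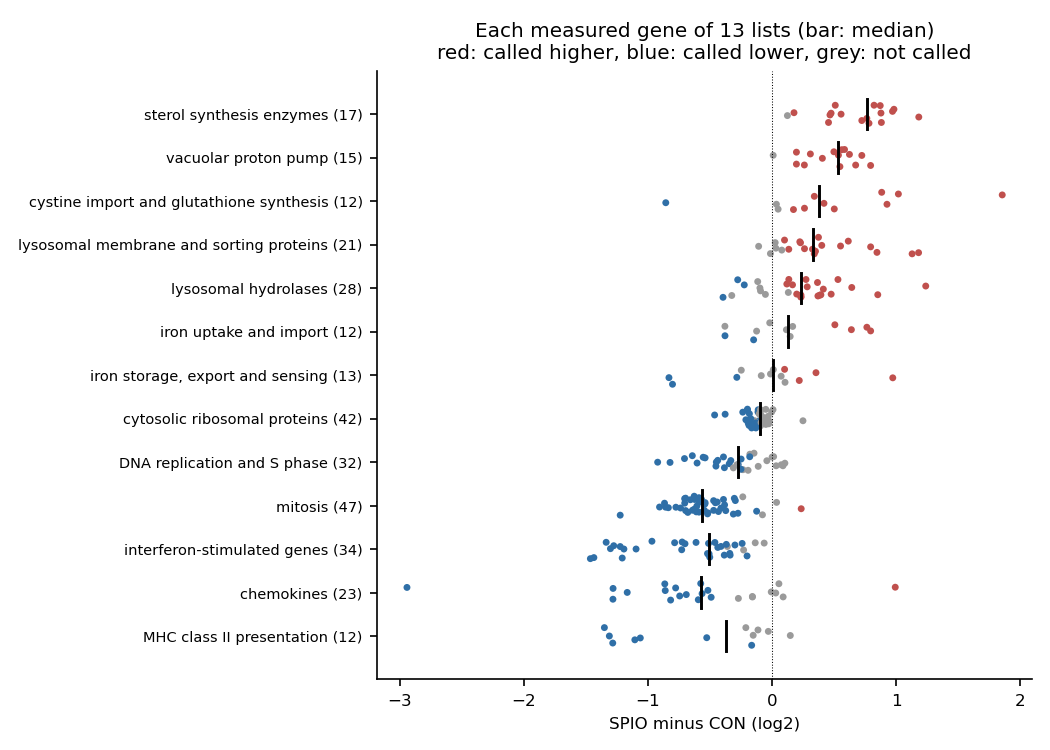
Each point is a measured gene of 1 of 13 lists (rows, number of genes in brackets), placed by its difference SPIO minus CON (log2, horizontal axis); red is called higher, blue called lower, grey not called, and the bar is the list's median. The bars run from 0.76 for sterol enzymes to -0.58 for chemokines, and iron storage genes lie on both sides of 0 around a median of 0.01.

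Receptors by which macrophages sense microbes and bind their targets changed in both directions. Cd14, the co-receptor for LPS, read 12.07, 12.09 and 12.12 in CON and 11.24, 11.30 and 11.34 in SPIO and fell by 0.80 ± 0.040, Ly86, a partner of Toll-like receptors, fell by 0.95 ± 0.047 and Tlr1 by 0.85 ± 0.062. Tlr8 (0.62 ± 0.10), Tlr7 (0.41 ± 0.041) and Tlr6 (0.40 ± 0.070) rose, as did the LPS receptor gene Tlr4 by 0.22 ± 0.049. Of 24 genes of the Toll-like receptor list 7 rose and 7 fell, with 4 rises under cyclic loess scaling. The activating Fc receptor genes Fcgr4 (9.25, 9.07 and 9.15 in CON and 8.0, 8.06 and 7.97 in SPIO) and Fcgr1 (10.15, 10.01 and 10.16 in CON and 9.28, 9.23 and 9.28 in SPIO) fell 2.22-fold and 1.80-fold, and Fcgrt, which recycles antibody, 1.90-fold. Their signalling kinase gene Syk rose by 0.46 ± 0.041. In complement, Cfp, which encodes properdin, read 11.04, 11.06 and 11.02 in CON and 9.73, 9.71 and 9.73 in SPIO (2.49-fold lower), and C1qa fell by 0.66 ± 0.038.

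Among 26 scavenger and dying-cell receptors 11 fell and 7 rose. Besides Cd163 the falls included Mrc1, the mannose receptor (11.47, 11.64 and 11.49 in CON and 10.57, 10.56 and 10.62 in SPIO), Stab1 (-0.89 ± 0.071) and Axl (-0.66 ± 0.056), and the rises Mfge8 (0.49 ± 0.050), a bridge to dying cells, the particle receptor gene Marco (0.49 ± 0.075) and Mertk (0.43 ± 0.074). Of 23 genes of alternative activation 10 fell and 1 rose. Tgm2, a transglutaminase, read 11.75, 11.66 and 11.65 in CON and 10.53, 10.47 and 10.51 in SPIO (2.27-fold lower), Socs2 fell by 0.72 ± 0.051 and Retnla by 0.63 ± 0.12. The 2 arginase genes differed: Arg2, the mitochondrial form, read 5.98, 6.33 and 6.33 in CON and 7.95, 8.07 and 8.08 in SPIO (3.53-fold higher), while Arg1 read 5.81, 6.28 and 6.37 in CON and 5.81, 6.69 and 6.13 in SPIO, with overlapping arrays and adjusted p = 0.854. Its difference of 0.06 changed sign without CON array 1 (-0.11) or SPIO array 2 (-0.18). Other surface receptors that fell were P2ry12 (8.28, 8.38 and 8.52 in CON and 7.20, 7.22 and 7.13 in SPIO), a sensor of ADP, P2ry6 (-0.75 ± 0.048) and the fatty acid receptor gene Gpr84 (-0.92 ± 0.086).

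Among 40 transcription factors of myeloid cells 16 fell and 6 rose. Bach2, a repressor, read 5.86, 6.39 and 6.18 in CON and 4.66, 4.70 and 4.63 in SPIO (2.79-fold lower), Fos 11.58, 11.53 and 11.58 in CON and 10.57, 10.69 and 10.55 in SPIO (1.95-fold lower), and Mef2c and Nr4a1 fell by 0.88 ± 0.084 and 0.88 ± 0.067. Bhlhe40 (0.46 ± 0.051), Irf8 (0.29 ± 0.055) and Cebpa (0.27 ± 0.058) rose. The lineage factor gene Spi1, which encodes PU.1, read 9.20, 9.26 and 9.24 in CON and 9.24, 9.33 and 9.26 in SPIO (adjusted p = 0.531). Feedback genes of kinase and cytokine signalling fell in 8 of 24 cases, with Dusp1 at -0.63 ± 0.052, and rose in 3, with Socs6, which read 8.60, 8.36 and 8.54 in CON and 9.58, 9.64 and 9.63 in SPIO, 2.17-fold higher. Cipc, a partner of the clock protein CLOCK, read 8.81, 8.84 and 8.96 in CON and 10.45, 10.46 and 10.48 in SPIO (3.02-fold higher), and the clock gene Rora rose by 0.66 ± 0.11.

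Several other genes were among the 30 largest changes each way. Slpi, an inhibitor of neutrophil proteases, read 7.53, 7.46 and 7.52 in CON and 9.26, 8.99 and 9.09 in SPIO and rose 3.06-fold (adjusted p = 1.15e-09). Anpep, an aminopeptidase of the cell surface, rose 2.32-fold, the dipeptidase gene Dpp7 2.28-fold, the peroxiredoxin-like gene Prxl2a 2.24-fold and the phospholipase gene Ddhd1 2.23-fold. Clotting genes went both ways. F10 rose, with 6.12, 6.03 and 6.20 in CON and 7.21, 7.25 and 7.36 in SPIO (2.23-fold). The endothelial protein C receptor gene Procr (2.08-fold) and F7 (1.58-fold) rose too, outside the 30 largest rises. The clotting gene F13a1 read 9.98, 9.90 and 9.85 in CON and 8.54, 8.51 and 8.46 in SPIO and fell 2.64-fold, and the thrombin receptor gene F2r read 7.60, 7.52 and 7.65 in CON and 5.96, 6.15 and 6.14 in SPIO (2.84-fold lower). Marcksl1, a regulator of the actin skeleton, fell 2.76-fold, Fcrls, a receptor-like gene of tissue macrophages, 2.68-fold, Igfbp4, which binds insulin-like growth factors, 2.50-fold, Fam43a 2.60-fold and the kinase gene Dmpk 2.53-fold. In each of these the SPIO arrays lay apart from the CON arrays. For the 30 largest changes each way this was a condition of the choice, so it adds no support.

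Smaller groups were divided. Among 21 genes of inflammasomes and caspases 8 rose and 6 fell, with the sensor genes Naip2 (0.58 ± 0.052) and Naip5 (0.50 ± 0.050), near copies of each other, on one side and Mefv, the pyrin gene (-0.85 ± 0.078), and Nlrp3 (-0.54 ± 0.11) on the other. Of 15 NF-kB subunits and inhibitors 5 rose and 6 fell (3 fell without SPIO array 1). Ikbkg, the scaffold of the IKK complex, rose by 0.80 ± 0.050 and the subunit gene Rel by 0.41 ± 0.068, while Nfkbiz, a nuclear inhibitor, fell by 0.56 ± 0.078. In 27 integrins and adhesion molecules 4 rises and 10 falls were called. Cd9, a tetraspanin, rose by 0.60 ± 0.052, and Itgav (-0.62 ± 0.041) and Itgam, the CD11b gene (-0.55 ± 0.096), fell. Regulators of G protein signalling fell in 8 of 19 cases, led by Gnai1 (-0.71 ± 0.052) and Rgs16 (-0.69 ± 0.076), and 2 rose.

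Markers were set against the label of the cells. The defining macrophage genes Adgre1 (12.21, 12.23 and 12.21 in CON and 11.83, 11.93 and 11.87 in SPIO), Csf1r and Cd68 had high signals in both groups, and over 14 macrophage markers 3 rose and 9 fell, with summed signals of 16.49 to 16.50 (log2) on the CON arrays and 16.39 to 16.40 on the SPIO arrays. Monocyte markers summed to 13.33 to 13.43 in CON and 12.76 to 12.79 in SPIO. Besides Ccr2, Cx3cr1 and F13a1, Ms4a4c fell 2.19-fold, and 1 of the 11, Hp, rose (0.37 ± 0.069). Neutrophil markers summed to 14.50 to 14.59 in CON and 14.03 to 14.09 in SPIO, with Lcn2 at -0.86 ± 0.080 and Camp at -0.76 ± 0.063, while Mmp8, a collagenase of neutrophils, rose 2.01-fold. Fibroblast markers summed to 15.63 to 15.66 in CON and 15.34 to 15.38 in SPIO. Mgp, an inhibitor of calcification, read 8.94, 8.89 and 8.81 in CON and 7.24, 7.52 and 7.20 in SPIO (2.95-fold lower) and Pdgfrb fell by 0.78 ± 0.061.

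Some of the largest rises are genes known from other cell types. Vwf, made by endothelial cells and megakaryocytes, read 5.49, 5.52 and 5.70 in CON and 7.65, 7.67 and 7.77 in SPIO (4.37-fold), Afp, a fetal liver protein gene, 5.88, 6.04 and 6.04 in CON and 7.59, 7.79 and 7.71 in SPIO (3.27-fold), and Bex1, known from the nervous system, 3.28, 3.38 and 3.54 in CON and 6.76, 7.32 and 6.98 in SPIO (no fold is given, since the CON signals were not shown to stand above background). Of the other 12 endothelial markers 0 rose by limma (0 at an unadjusted p under 0.05) and 3 fell, with Tie1 and Tek at CON means of 3.39 and 3.04. Of the other 8 megakaryocyte markers 2 fell, Ppbp and Pf4, and 1, Nfe2, rose by 0.47 ± 0.14, a call lost without CON array 2. Of the other 9 hepatocyte markers 0 were called (0 at an unadjusted p under 0.05), with Alb at 3.90. Of 8 adipocyte markers 2 rose, Fabp4 by 1.86 ± 0.063 and Pparg by 0.45 ± 0.16, and 1, Lipe, fell (-0.25 ± 0.074). The calls of Pparg and Lipe were lost without CON array 1 or 2 or SPIO array 3, and that of Pparg also without SPIO array 2. The defining genes Adipoq and Lep stood at 2.79 and 2.86 in CON and were not called. The list's summed signal was 9.74 to 9.81 (log2) in CON and 11.15 to 11.22 in SPIO, while its median difference was 0.04. Fabp4 had the highest CON mean of the list, 9.07, so its own rise weighs most in the sum. The part of these markers in other results was not tested. Among 8 T and NK cell markers 0 were called by limma, and 2 were lower at an unadjusted p under 0.05.

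Iron oxide was also compared with silica, the other particle. The test of SPIO against Silica called 3240 genes (26.1%), 14.6% higher and 11.6% lower. It shares the SPIO arrays with the comparison against CON, so the overlap is a description only. Of all called rises 63.6% were also called higher than Silica, and of all called falls 63.9% lower. Among changes of at least 2-fold, which were picked as extreme on those same SPIO arrays, these were 47 of 51 rises and 61 of 61 falls. The differences were largest for Bex1 (3.56 ± 0.21), Vwf (2.05 ± 0.11), Bst1 (1.78 ± 0.068), a NAD-cleaving surface enzyme, and Afp (1.67 ± 0.10), and for Adgre4 (-2.12 ± 0.10), Ccr2 (-1.97 ± 0.12), Cx3cr1 (-1.90 ± 0.12) and Ppbp (-1.81 ± 0.13). In Bex1, Vwf, Bst1, Afp, Ccr2 and Cx3cr1 the difference between Silica and CON was not called and lay between -0.07 and 0.19, whereas Adgre4 and Ppbp fell after silica too (-0.99 and -1.14).

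Against the background of 14.6% and 11.6%, all 17 sterol enzymes, 13 of 15 pump subunits and 12 of 21 lysosomal membrane genes stood higher in SPIO than in Silica, and 42 of 47 mitosis and 22 of 34 interferon-stimulated genes lower. Silica by itself changed 4.02% of genes against CON, 2.45% up and 1.57% down. Among them were 6 sterol enzymes, which rose, and 14 interferon-stimulated and 8 chemokine genes, which fell. For 4 of the large rises no difference between the particles was shown. The potassium channel gene Kcnk1 rose by 1.16 ± 0.094 after iron oxide and by 1.02 ± 0.094 after silica, and the difference between them was 0.15 ± 0.094 (adjusted p = 0.293). For Cth the difference was 0.09 ± 0.13, for the serotonin receptor gene Htr2b 0.37 ± 0.15 and for Lce1f, a gene of the skin barrier named after its values were seen, 0.40 ± 0.16. The adjusted p-values were 0.672, 0.0959 and 0.0740, which does not show that the particles act alike.

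Iron oxide was also given before LPS, on separate arrays, which makes SPIO-LPS against LPS a second reading of the particle in cells with another treatment. That comparison called 4058 genes (32.7%, with 18.2% higher and 14.6% lower), and 2817 in a fit of the compared groups alone. In the same direction 2528 were called in both, which is 60.3% of the SPIO against CON list and 62.3% of the other. Both tests used the same estimate of spread for each gene, so their calls are not independent. Of the 112 changes of at least 2-fold, 94 were called in the same direction under LPS and 2 in the opposite one, the latter being Cxcl2 and Cytip, which was named after its values were seen. The effect under LPS differed from that without LPS in 1090 genes (8.8%), where it was higher in 3.73% and lower in 5.07%, and 754 of these were among the 4189 genes that iron oxide alone changed. Among the 112 changes of at least 2-fold the difference was called in 62, which were 33 of 51 rises and 29 of 61 falls. The SPIO and CON arrays that picked the 4189 genes, and the 112 as extreme, also enter the test of the difference. The counts of called differences among them are therefore a description only.

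By list, 16 of 17 sterol enzymes rose and 44 of 47 mitosis genes fell under LPS too, with medians of 0.75 and -0.60. Of the 12 cystine import and glutathione synthesis genes 8 rose and 1 fell under LPS, against 9 and 1 without it, and the difference was called higher in 4 and lower in 1. Gclc rose by 1.67 ± 0.054 and Gclm by 1.76 ± 0.053 under LPS, with differences of 1.17 ± 0.076 and 0.87 ± 0.075. Gsr rose less there (0.52 against 0.93, difference -0.41 ± 0.067), and for Slc7a11 (1.42 against 1.86) and Cth (0.83 against 1.02) the difference was not called. Interferon-stimulated genes differed between the settings. Under LPS 12 of 34 fell and 2 rose, with a median of -0.19, and the effect of iron oxide was higher than without LPS in 18 and lower in 0 (0 at an unadjusted p under 0.05). LPS is a known inducer of these genes, and Irf7 stood at 11.25 in LPS and 10.90 in SPIO-LPS. Endoplasmic reticulum chaperones, of which 14 of 25 rose without LPS, rose in 7 and fell in 5 under LPS, and the difference was called lower in 5 and higher in 1.

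**Figure D5:**
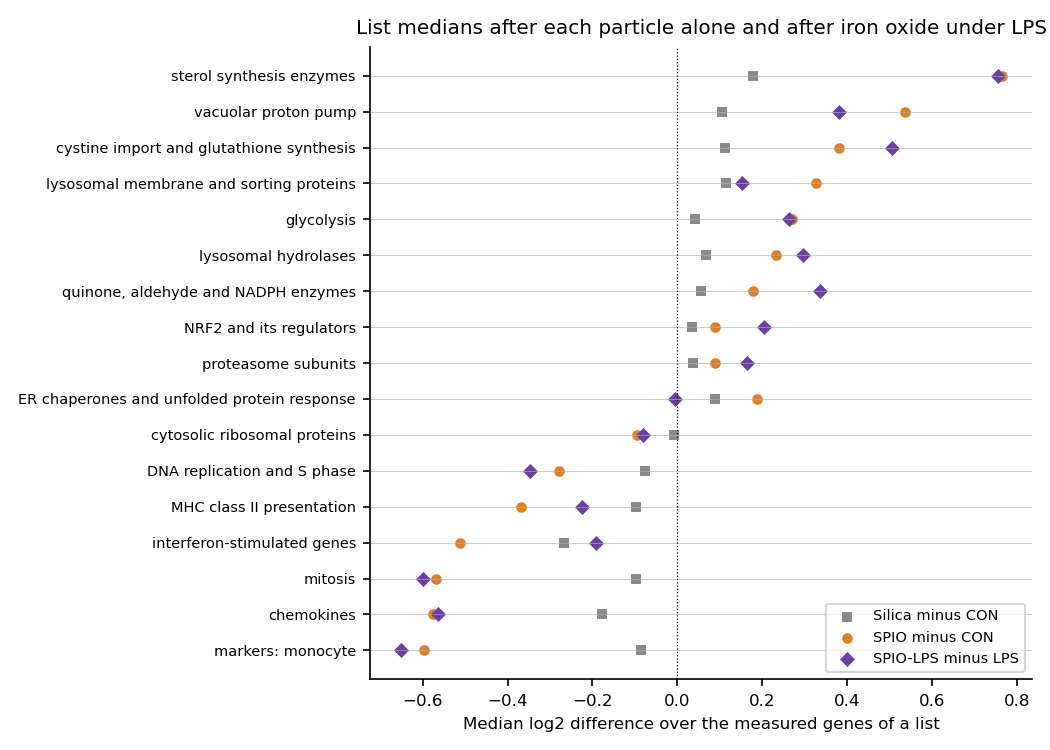
Median log2 difference over the measured genes of 17 lists (rows) for Silica minus CON (grey squares), SPIO minus CON (orange circles) and SPIO-LPS minus LPS (purple diamonds). Sterol enzymes (0.76 and 0.75) and mitosis (-0.57 and -0.60) lie close together in both iron oxide comparisons, and interferon-stimulated genes read -0.51 without LPS and -0.19 with it.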

How the data were processed

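Total RNA of each sample went onto 1 array. The authors deposited log2 values for every probe set, made with RMA, per the submitters' processing notes, whose version is not given in the sources used here. They were used as deposited, with no further normalization.

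Of 22690 probe sets, 64 are controls, and 20380 of the others carry 1 gene symbol, 691 several and 1555 none; 20351 were updated through their gene ID. The probe set with the highest mean over 18 arrays stood for each of 12393 genes. Group means over the 18 arrays were estimated in 1 model with limma 3.58.1 (R 4.3.3), with eBayes, contrasts for each comparison and Benjamini-Hochberg adjustment over all genes. P-values were not adjusted within a list, and no set test was run.

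Genes are named where they are among the 30 largest called changes each way without overlap of arrays, among the 4 largest called changes each way of a list, among the 5 largest each way in the tests against silica or of the difference under LPS, or among 50 measured genes chosen by hand. Outside this rule, Msmo1 and Rsad2 were named for their promoter windows, and Actb, Adipoq, Alb, Ccl2, Lep, Mt3, Tek, Tie1, Lce1f and Cytip were named after their values were seen. The groups, the 74 gene lists (1408 genes measured of 1627 written, the rest not analysed here) and the tests were chosen with earlier results of these data known. Promoter letters are from RefSeq (GRCm38.p6), matched by symbol for 9887 genes. For each motif the windows shown are those of the called genes with the largest change in the list's direction and a match. Genes on chromosome 18 were left out of this choice, so a larger change there would not be shown. A window has up to 35 bases on each side and is cut at the gene start.

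On simulated data of 12393 genes, the fit of SPIO against CON recovered 32.4%, 86.1% and 100% of changes of 0.25, 0.5 and 1 (log2), with 8 false calls. Only 71, 79 and 50 genes were given these changes, far fewer than the 4189 called in the data. The adjusted threshold depends on how many genes change, so these shares need not hold for the real comparison. Alternatives were a replicate block, a fit without the other groups, a robust prior with a variance trend, leaving out the dimmest genes, averaged or separate probe sets, cyclic loess, array weights, a minimum fold and leaving out each array in turn. Figures were drawn with Python 3.11.15 and matplotlib 3.10.9.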

Additional observations from a re-analysis of the deposited data

Results flagged for a closer look

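For 754 of the 4189 genes changed by iron oxide alone, the test of the difference found another effect of iron oxide in cells given LPS. Over all 12393 genes the difference was called in 1090. The SPIO and CON arrays that picked the 4189 genes also enter this test, so the share among them is a description only. The genes with the largest such differences are given with their effects (SPIO minus CON, then SPIO-LPS minus LPS, log2) and the test of the difference by limma.

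The iron exporter gene Slc40a1 rose by 0.97 without LPS and by 2.79 with it, a difference of 1.82 ± 0.13 (adjusted p = 3.54e-07). Its mean was 9.84 in CON and 10.82 in SPIO, and 6.20 in LPS against 8.99 in SPIO-LPS. Cxcl2, a neutrophil attractant, fell by 1.28 without LPS and rose by 0.40 with it (1.68 ± 0.097), from 13.15 in LPS to 13.54 in SPIO-LPS. For the related Cxcl1 the values were -0.86 and 0.99 (1.85 ± 0.18), but its means without LPS, 5.05 in CON and 4.19 in SPIO, are in the lowest signals and were not shown to stand above background, so a fall there is uncertain. Cytip, a regulator of cell adhesion, fell by 1.24 and rose by 0.28 (1.52 ± 0.11). Plk2, a stress-induced kinase gene, fell by 0.35 and rose by 1.59 (1.94 ± 0.062). Rabgap1l rose by 0.19 and 2.09 (1.90 ± 0.097), and its call without LPS was lost without CON array 1 or 2 or SPIO array 1 or 3, under cyclic loess and with averaged probe sets.

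Differences in the other direction were led by Pfkfb3, an enzyme that speeds up glycolysis, with 0.27 and -1.51 (-1.78 ± 0.068). Irf8, a transcription factor of macrophages, had 0.29 and -0.96 (-1.24 ± 0.078), and Tmem268 0.89 and -0.35 (-1.24 ± 0.088). Without LPS 1 of 2 probe sets was called for Pfkfb3 and for Irf8, and the others read -0.15 and 0.06. Bst1 rose in both settings, by 1.84 and 0.47 (-1.37 ± 0.096), as did Bex1, by 3.62 and 2.37 (-1.25 ± 0.30), from means of 3.40 in CON and 2.92 in LPS that were likewise not shown to stand above background.

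Probe sets outside the gene table also differed between SPIO and CON. Of 691 with several gene symbols 235 were called (34.0%), 113 higher and 122 lower, and of 1555 with no symbol 326 (21.0%), 146 higher and 180 lower. No gene can be named from them. Groups of 3 arrays were not tested for outliers.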

How the results depend on the processing

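The counts of rises, falls, differences from silica, differences under LPS and changes under LPS stayed within 1.5 times of those reported, apart from the settings named next. With every probe set as a unit of its own, 3916 were higher, 2703 lower and 6162 called in SPIO-LPS against LPS, since more units were tested. With a minimum of 1.5-fold the counts were 266, 308, 353 (against silica), 277 (difference under LPS) and 642 (SPIO-LPS against LPS), by construction. With 1 array left out they lay at 1972 to 2344 higher, 1440 to 1722 lower, 2524 to 3190, 885 to 1013 and 3957 to 4021.

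The replicate numbers were not taken to pair the arrays, since the residual correlations of same-numbered CON and SPIO arrays were 0.13, 0.03 and 0.09, although each CON array correlated best with the SPIO array of its own number; with the replicate block 2381 genes were higher and 1729 lower. Under cyclic loess the median of all genes moved by 0.01 and the counts were 2283 and 1788.

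Averaging the probe sets of a gene turned the sign of Bach1 to -0.091, Slc39a6 to -0.027, Idh3a to 0.11, Dnajc3 to 0.13 and Tapbp to 0.020, and the probe sets of these genes and of Rpl22 were called in opposite directions. Dmpk, Pltp and Prxl2a each had 2 probe sets of which 1 was called, and the other read 0.11, -0.01 and 0.09. Rrm1, Srebf2 and Ptgs2 likewise had 1 of 2 called, and other named genes also had probe sets that were not called. Arg1, not called, ranged from -0.18 to 0.26 with 1 array left out. Without the dimmest genes 2 lists had no median. Of the 420 genes the naming rule covers, 24 kept their direction but lost the call when the other groups were left out, 16 with averaged probe sets, 11 under cyclic loess, 5 with the replicate block and 20 to 31 with 1 array left out.

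With 3 arrays a group, a median 95% interval of ± 0.17 limits what can be seen. Of the 4131 genes with the lowest CON signals 8.52% were called, against 52.2% of the 4131 with the highest, so a missing call says little for dim genes.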

Other observations

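Of 16 eicosanoid and phospholipid enzymes 6 rose and 6 fell, and of 24 purinergic, lipid and other surface receptors 6 rose and 12 fell. The prostaglandin receptor gene Ptger2 rose by 0.66 ± 0.064, the lipid phosphatase gene Plpp3 by 0.84 ± 0.046 and Pla2g7, which degrades platelet-activating factor, by 0.56 ± 0.051. Cd300lf, an inhibitory receptor for lipids, read 7.68, 7.77 and 7.46 in CON and 8.47, 8.52 and 8.51 in SPIO and rose 1.82-fold. Of 32 matrix proteases and inhibitors 9 rose and 12 fell: Mmp8 rose and Mmp9 (-0.57 ± 0.073) and the plasminogen activator inhibitor gene Serpinb2 (-0.65 ± 0.071) fell. Aif1, a calcium-binding protein of macrophages, read 10.49, 10.45 and 10.43 in CON and 9.48, 9.32 and 9.30 in SPIO and fell 2.13-fold, with the 3 SPIO arrays below the CON arrays.

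Grouped by the start of their symbols alone, which says nothing of function, genes were called at shares set here beside 19.6% higher and 14.2% lower over all genes, with no test of the difference. Of 173 measured Zfp genes, named after zinc fingers, 41 were higher and 5 lower, and of 118 Tmem genes, named as transmembrane proteins, 38 and 11. Of 56 Rnf genes, many of which encode ubiquitin ligases, 19 were higher and 4 lower. Of 262 Slc genes of membrane carriers 46 were higher and 23 lower, of 63 Cyp genes 4 and 4, and of 40 Krt keratin genes 1 and 5. All families of 40 or more were counted, 13 in number.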
